A study of Homo sapiens with 2 samples.

Results

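Global run-on sequencing (GRO-seq), which labels RNA as engaged polymerases extend it in isolated nuclei, gives the strand on which a gene is being transcribed. The loci described here are those at which antisense reads were enriched inside the 5′-UTR or the coding sequence of a protein-coding transcript, and most other loci of the authors' deposited table lay in the 3′-UTR. A locus was counted here where its midpoint came before the end of the coding sequence in GENCODE 44 and the gene symbol did not begin with ZNF, whatever its signal. This gave 240 of the 2016 loci in the table (11.9%), or 12.5% of the 1916 loci that could be placed on a transcript with a coding sequence. The midpoint was in the 5′-UTR for 52 loci and in the coding sequence for 188, and the 240 loci belonged to 240 different genes.

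The libraries were 2 biological replicates of MDA-MB-231, an established line of triple-negative breast cancer, made from 10000000 cells each. There was 1 condition, and the labels name no treatment, so no groups were compared. The table held 1 value per locus for the whole series, so neither the depth of a library nor the replicate spread can be read from it. Every logASR and q below is the authors' deposited value; the standard errors were calculated from them and cover counting error only.

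The logASR is the natural log of an odds ratio, namely the odds that a read in the locus was antisense, divided by the same odds over the rest of the transcript. A value of 0 thus means that the locus was no richer in antisense reads than its own transcript. The ratio can be high where the locus has many antisense or few sense reads. It can also be high where the rest of the transcript has few antisense or many sense reads. These cannot be told apart without the counts.

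Antisense RNA can arise at several places in a gene. Near the start, many mammalian promoters fire in both directions, and a polymerase that starts downstream of the sense start site and runs back through the first exon produces RNA complementary to the 5′-UTR. Further along, a neighbouring gene on the other strand can run tail to tail into the coding exons, or a separate antisense gene can start within the body of the sense gene. RNA complementary to a start codon or to a splice junction can in principle pair with the mRNA there, which is why the parts of the message under each locus are described below.

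The start codon lay under 45 of the 240 loci. The 3 sequences here show the antisense strand across it in NAA16, BPTF and NFE2L2, written 5′ to 3′ with the complement of the ATG in capitals, from hg38 at chr13:41311517-41311546, chr17:67825713-67825742 and chr2:177264559-177264588. The sense strand is plus for NAA16 and BPTF and minus for NFE2L2.
NAA16: cagcagcacgttcggCATcgtggccggcag
BPTF: gccccgccggcccctCATgtcggagccgag
NFE2L2: cagctccaagtccatCATgatgagctgtgg
NAA16, an auxiliary subunit of the N-terminal acetyltransferase that acts on nascent proteins, had a logASR of 7.27 (standard error 0.551). BPTF, the large subunit of the NURF chromatin remodeller, had 6.50 (standard error 0.559). In both genes the locus lay wholly within exon 1, and its antisense 5′ end was 290 nt from the transcript start in NAA16 and 483 nt in BPTF. The antisense 5′ end means the end of the locus furthest along the transcript, which the authors set from reads in windows. No start of an antisense RNA was mapped.

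NFE2L2 encodes NRF2, the transcription factor that switches on the antioxidant response and is degraded through KEAP1 in unstressed cells. Its locus of 402 nt had a logASR of 4.72 (standard error 0.422, 95% interval from 3.89 to 5.54), which is an odds ratio of 112, with a q of 3.16e-27. On the genome it fell into a block of 167 nt in exon 1, at chr2:177264532-177264698, and a block of 235 nt in exon 2, at chr2:177234037-177234271. An intron of 30260 nt separates the blocks, and the sequence that joins them in the spliced message is shown because the locus runs across it (sense strand, exon 2 in capitals).
NFE2L2 junction: ctcccgtcccagcagGACATGGATTTGATT
On the opposite strand lies the lncRNA gene ENSG00000222043, which covers the 167 nt of the exon 1 block, or 41.5% of the locus, and none of the exon 2 block. Reads from the exons on either side were mapped to the spliced message, so the table does not say whether 1 antisense RNA covered both blocks.

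The loci before the end of the coding sequence had a higher median logASR than those of the 3′-UTR and a larger standard error. Loci are not replicates, so the medians of groups of loci are set side by side here and below as descriptions, and the differences between them were not tested. The median logASR was 3.71 (quartiles 2.89 and 4.66) over the 238 loci whose standard error did not exceed 2. The median was 3.92 for the 51 such loci of the 5′-UTR and 3.68 for the 187 of the coding sequence, against 2.73 for 1635 loci of the 3′-UTR, whose quartiles were 2.07 and 3.66. In odds, the medians were 40.8-fold before the end of the coding sequence and 15.4-fold in the 3′-UTR. The median standard error was 0.712 and 0.516, in the same order. The error variance of such a ratio adds up 1 over each of its 4 read counts, so the smallest of the 4 was between 2 and 7 reads at the median standard error of the loci described here and between 4 and 15 reads in the 3′-UTR. A locus with few reads passes a threshold on q only with a large logASR, and its part in the difference between the medians was not tested. The 1672 loci of the 3′-UTR lay in 1489 genes and the 240 loci here in 240, and the part of this was not tested either.

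**Figure D1:**
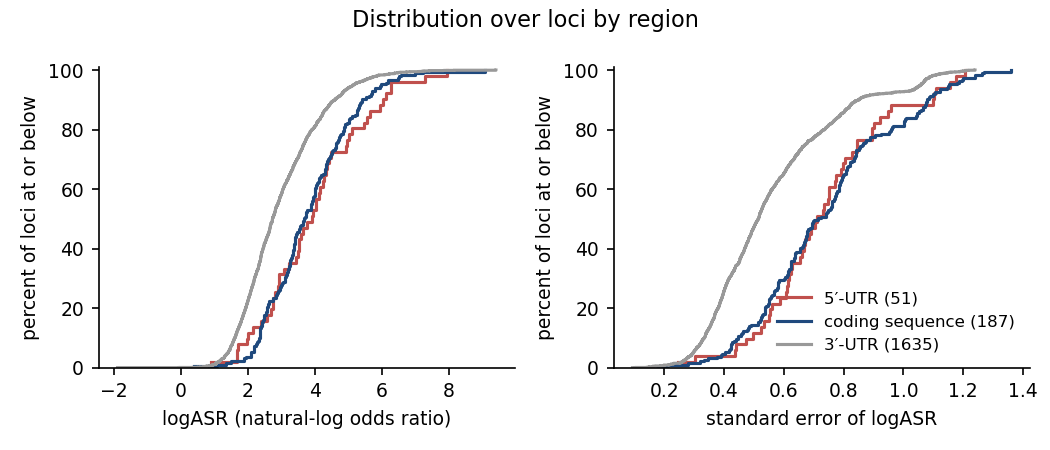
Cumulative distribution of the logASR (left) and its standard error (right) by region, leaving out loci with a standard error above 2, with the number of loci in brackets. The curves of the 5′-UTR (red) and the coding sequence (blue) run close together, with median logASR of 3.92 and 3.68, to the right of the 3′-UTR curve (grey), with 2.73.

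A logASR above 0.5 with a q below 0.01 was reached by 237 of the 240 (98.8%), beside 97.4% of all loci in the table, since the table lists loci merged from windows already past a test. A logASR above 1 with a q below 1e-05 was reached by 139, or 57.9% (95% Wilson interval from 51.6 to 64.0), beside 60.9% of all loci. The shares at both levels were close to those of the whole table. With a Bonferroni correction in place of q, the counts were 134 and 72.

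The 10 largest logASR values among the 139 loci ran from 6.27 to 9.07. RIPOR1, which encodes an inhibitor of RHOA, had 9.07 (95% interval from 6.97 to 11.2) over 164 nt near the end of its coding sequence. MRFAP1, which encodes a partner of the MORF4 family, had 7.95 (95% interval from 5.64 to 10.3) in its 5′-UTR. Both rest on very few reads, with a smallest count of no more than 3 reads in RIPOR1 and 2 in MRFAP1. In MRFAP1, 16.7% of the 24-mers are repeated in the genome at least 10 times.

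NAA16 came next with 7.27 and was better measured, with a smallest count between 4 and 13 reads. DHX37, an RNA helicase of ribosome assembly, had 7.23 (standard error 0.925), and its locus crossed 3 junctions. ZBTB11, a zinc finger transcription factor, had 6.99 (standard error 1.15) over its start codon, SKIC3, a subunit of the SKI complex that feeds RNA to the exosome, had 6.56 (standard error 1.06), and ATP13A2, a lysosomal polyamine transporter, had 6.47 (standard error 0.835). The 95% intervals of the 10 loci overlap one another, so their order was not resolved. NR2F2, the nuclear receptor COUP-TFII, had 6.28 (standard error 0.949) and CLIC1, a chloride intracellular channel protein, had 6.27 (standard error 0.846), each in the 5′-UTR.

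**Figure D2:**
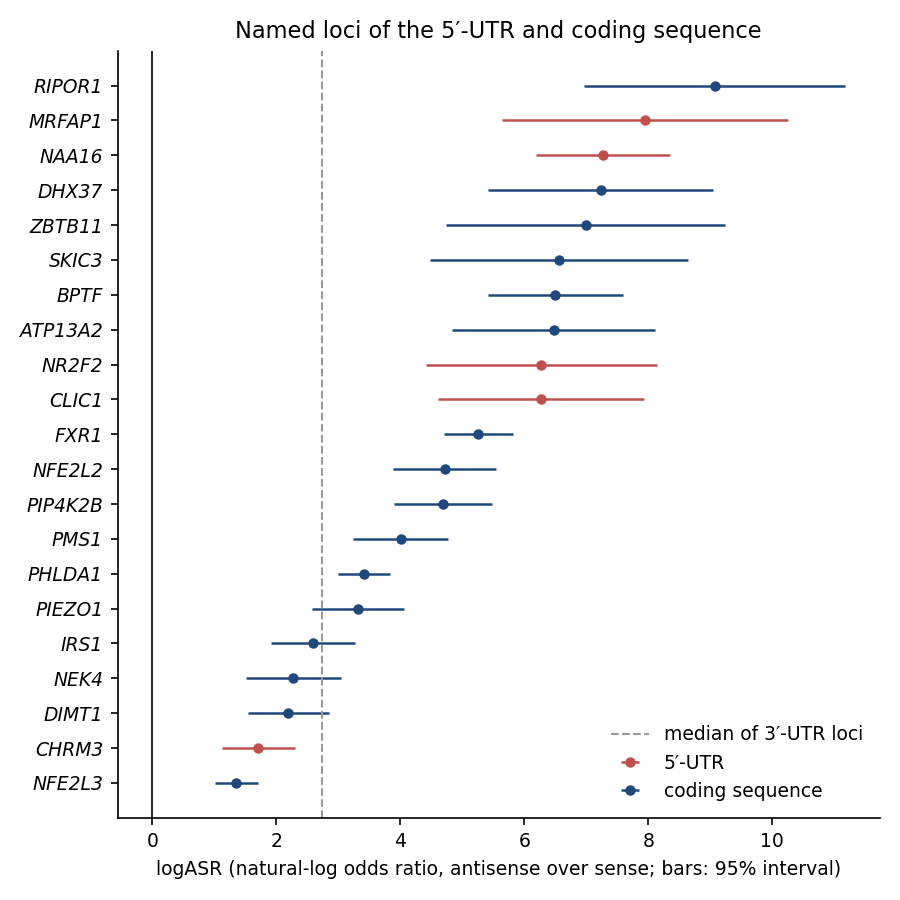
logASR (horizontal axis, natural-log odds ratio) of the 10 loci with the largest logASR and the 10 with the smallest standard error, with NFE2L2. Points are the deposited values and bars are 95% intervals from the calculated standard errors; the dashed line is the median of the 3′-UTR loci, 2.73. RIPOR1 is highest at 9.07 with a wide interval, and NFE2L3 lowest at 1.35 with the narrowest.

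The best-measured loci were another set of genes. NFE2L3, a relative of NRF2, had the smallest standard error, 0.177, with a logASR of 1.35 and a smallest count between 32 and 127 reads. PHLDA1, a growth-responsive pleckstrin homology protein, had a logASR of 3.41 (standard error 0.212) over 1981 nt, the longest of the 240 loci. FXR1, an RNA-binding protein of the fragile X family, had 5.26 (standard error 0.281), with the smallest q of these 3 loci at 2.57e-75. The smallest count in PHLDA1 lay between 23 and 89 reads and in FXR1 between 13 and 50.

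Signalling and membrane proteins followed. CHRM3, a muscarinic acetylcholine receptor, had a logASR of 1.71 (standard error 0.302) in its 5′-UTR, where 88.0% of the 24-mers are repeated. IRS1, the docking protein of the insulin receptor, had 2.59 (standard error 0.346) with no repeated 24-mer, and PIEZO1, a mechanically gated channel, had 3.32 (standard error 0.378). PIP4K2B, a lipid kinase, had 4.69 (standard error 0.403). The interval of CHRM3 lay wholly below that of PIEZO1, which starts at 2.58, and that of PIP4K2B, which starts at 3.90. DIMT1, the methyltransferase that modifies 18S rRNA, had 2.19 (standard error 0.334), NEK4, a kinase, had 2.28 (standard error 0.390), and PMS1, of the DNA mismatch repair family, had 4.00 (standard error 0.393). In NEK4, 25.4% of the 24-mers are repeated, and parts of the DIMT1 and NEK4 loci have copies elsewhere in the genome.

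Along the coding sequence, the midpoints were found at all positions and were most frequent at its end. The last 10% of the coding sequence held 34 of the 188 coding loci and the first 10% held 23. The end of the coding sequence itself lay under 26 loci and the start codon under 45, with 2 loci over both. Among the loci over the end, 15 of 26 (57.7%) were opposite an annotated gene, beside 60 of all 240 (25.0%). At the border set by the rule, the nearest loci inside included MRPL30 and POMT1, with logASR of 2.75 and 2.43. The 3 nearest outside were MAN1B1, NEK6 and ADORA2B, with 3.34, 2.05 and 4.31.

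**Figure D3:**
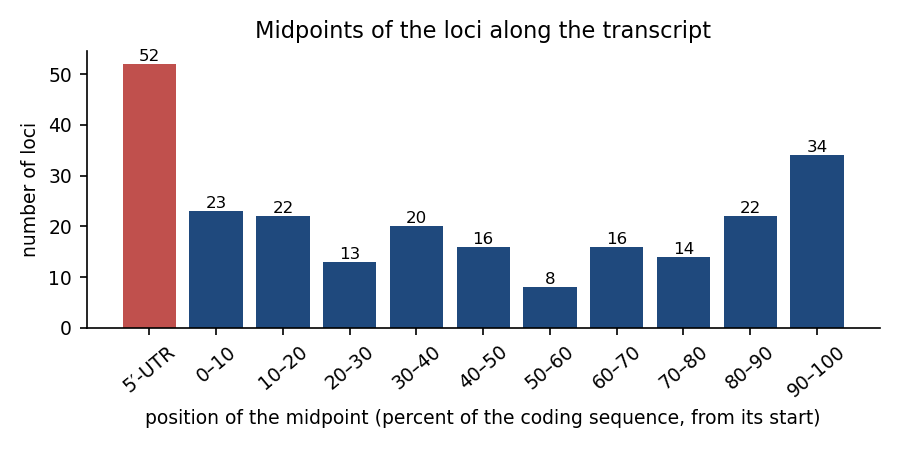
Number of loci (vertical axis) by the position of the midpoint, for the 5′-UTR (red, 52 loci) and for 10 equal parts of the coding sequence from its start (blue, 188 loci). The counts per part run from 8 to 34, with the highest in the last.

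The antisense 5′ end lay within 500 nt of the transcript start, counted along the spliced message, in 59 loci, of which 33 were in the 5′-UTR and 26 in the coding sequence. These 59 loci had a median logASR of 4.02, with quartiles of 3.10 and 4.89, against 3.63 with quartiles of 2.72 and 4.57 for the others. The choice of distance set the count, which was 5 within 250 nt, 111 within 1000 nt and 31 within 500 nt of genomic sequence. The distances are to locus ends, not to mapped RNA starts. The authors' windows were 500 nt with a step of 250 nt, and the part of this in the counts was not tested. The 59 loci were rich in G and C, with a median of 62.5%, against 54.5% for the remaining 181. Their CpG content was also higher, at a median of 0.775 of the number expected from the base composition, against 0.435 for the others and 0.331 for the 3′-UTR loci. CpG-rich sequence marks most human promoters, and values above 1 over all 240 loci included those of TMEM158 (1.24), RHEB (1.22), LMNB1 (1.13) and ZBTB11 (1.06), of which TMEM158, RHEB and LMNB1 were named after their values were seen. Set against the 5′-UTR and coding sequence of the same transcript combined, 127 of 240 loci were richer in G and C, with 39 of 52 in the 5′-UTR and 88 of 188 in the coding sequence.

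**Figure D4:**
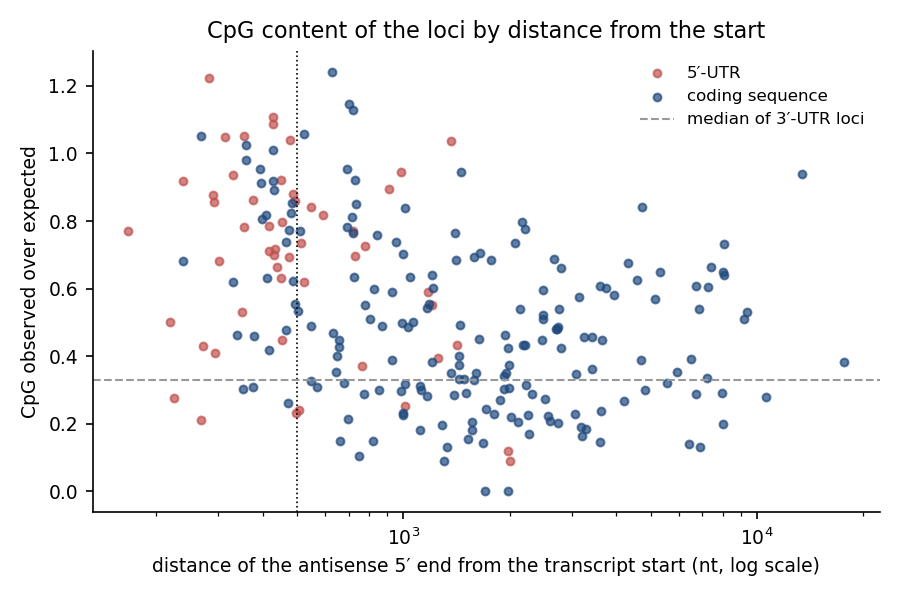
Observed over expected CpG (vertical axis) of each locus against the distance of its antisense 5′ end from the transcript start in nt (log scale), for the 5′-UTR (red) and the coding sequence (blue). The dotted line marks 500 nt and the dashed line the median of the 3′-UTR loci, 0.331; the median is 0.775 to the left of the dotted line and 0.435 to the right.

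YAP1, the transcriptional coactivator of the Hippo pathway, is an example over the start codon. Its locus of 472 nt lay in exon 1 with an antisense 5′ end 549 nt from the transcript start, and its logASR was 6.03 (95% interval from 3.86 to 8.20), with a smallest count of at most 3 reads. USP7, the deubiquitinase that acts on MDM2, had 5.04 (standard error 0.794) over a locus in exons 1 to 4, whose first intron is 32809 nt. Parts of both loci have copies in processed pseudogenes. The copy of YAP1 aligns to a span at 87.6% identity that covers 47.7% of the locus, and that of USP7 to 357 of 500 nt at 92.7%. The antisense strand across both start codons is shown for comparison with those above, with the complement of the ATG in capitals, from hg38 at chr11:102110837-102110866 (sense strand plus) and chr16:8963268-8963297 (sense strand minus).
YAP1: ctgctgcccgggatcCATggcttctgcctc
USP7: ctgctgctggtggttCATgtcggccgcggc

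An exon junction lay within 161 of the 240 loci (67.1%, 95% Wilson interval from 60.9 to 72.7), 149 of them in the coding sequence and 12 in the 5′-UTR. Junctions were crossed by 0.419% of the 3′-UTR loci, whose exons are seldom interrupted. A single junction was crossed by 51 loci, 2 junctions by 61, 3 by 30 and from 4 to 7 by the remainder. In genomic terms the loci with a junction had a median span of 3254 nt, and the largest intron inside a locus was 68946 nt, in UBE2R2, a ubiquitin-conjugating enzyme with a logASR of 1.08 (standard error 0.320). The median logASR was 3.60 with a junction and 3.87 without.

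COL7A1, the anchoring fibril collagen of skin, crossed the most junctions, 7, within 377 nt and had a logASR of 4.30 (standard error 0.959). Its exons here are short, and each of the 8 blocks is 81 nt or less, the last of them 1 nt. MRPL48, a protein of the mitochondrial ribosome, crossed 6 junctions with introns of up to 19010 nt and had 4.53 (standard error 1.07). CEP295, a centriole protein, SNRNP200, the helicase that unwinds U4/U6 in the spliceosome, and CC2D1A, a C2-domain signalling protein, also crossed 6, with 4.25 (standard error 0.417), 3.37 (standard error 0.460) and 2.88 (standard error 0.741). The junctions below, on the sense strand with the second exon in capitals, are shown because these loci run across them. In MRPL48 the smallest count was at most 3 reads, and a processed pseudogene, MRPL48P1, matches 596 of its 649 nt at 93.3% identity.
COL7A1 exons 99 and 100: gagcgtggggagaagGGTGATGTTGGGAGT
MRPL48 exons 4 and 5: attaaagcagaagagCCCAAGAAGAAGAAG
CEP295 exons 25 and 26: aaatgcttctttcagGTGAGTGAGTTTCTG

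Most junction sequences do not occur in the genome, where the intron separates the exons, so unspliced RNA of the opposite strand does not hold them. Of 330 junctions with 12 nt of the locus on each side, the 24-mer centred on the junction had no copy in hg38 for 319. The other 11 junctions were in 6 genes. HMGN2, a nucleosome-binding protein, had 5 of them, with 8 to 21 copies each, and its logASR was 2.43 (standard error 0.655). The others were in PEF1, TLE1, NDUFB10, SNRNP200 and PARL, each of which has a copy elsewhere in the genome. PEF1, TLE1, NDUFB10, PARL and HMGN2 were named after their values were seen.

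An annotated gene lay on the opposite strand of 60 loci (25.0%, 95% Wilson interval from 19.9 to 30.8), and an exon of it in 41. In the 3′-UTR the shares were 18.2% for a gene and 7.06% for an exon. Among loci without a repeated 24-mer the order was the other way, with a gene opposite 26.4% and an exon opposite 18.4% of the 201 such loci here, against 41.6% and 29.2% of the 154 in the 3′-UTR. Counted by pairs, the 66 opposite genes were 31 protein-coding genes, 31 lncRNA genes, 3 small or other RNA genes and 1 pseudogene. The pairs ran tail to tail in 28 cases, head to head in 16, with the opposite gene inside the sense gene in 15 and around it in 7. The protein-coding partners were mostly tail to tail, 16 of 31, and lncRNA genes were most often inside the sense gene, 12 of 31. The 180 loci opposite no annotated gene had a median logASR of 3.89, and the 41 opposite an exon had 3.24.

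Tail to tail pairs placed the 3′ exons of 1 gene under the coding exons of the other. TAF6, a subunit of TFIID, had all 705 nt of its locus under exons of AP4M1 and a logASR of 2.43 (standard error 0.526). NFE2L3 had 655 of 792 nt under exons of HNRNPA2B1, a nuclear RNA-binding protein, and its logASR of 1.35 was the lowest of the named loci opposite an exon. CEP295 met TAF1D, a subunit of the factor that starts ribosomal RNA transcription, over 249 of 1051 nt, and another 724 nt of its locus lay under exons of ENSG00000279696, a gene annotated inside CEP295. TAF1D itself carried a separate locus over its start codon with a logASR of 5.94 (standard error 0.964).

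Head to head pairs shared the region of their promoters. ZBTB11 had all 515 nt of its locus under ZBTB11-AS1, an annotated lncRNA that begins 186 nt upstream of the antisense 5′ end of the locus. Also head to head, and named after their values were seen, were CBX3, which encodes the heterochromatin protein HP1γ, and HNRNPA2B1, with 297 of the 345 nt of the CBX3 locus under an exon and a logASR of 4.93 (standard error 0.660). HNRNPA2B1 thus lay opposite the loci of 2 neighbouring genes, CBX3 and NFE2L3.

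An annotated antisense transcript began within 500 nt upstream of the antisense 5′ end, or up to 100 nt inside it, in 10 loci (4.17%), beside 2.03% of the 3′-UTR loci and 3.90% of those without a repeated 24-mer. They included ZBTB11, as well as CHTOP and TOR1AIP1, where unnamed lncRNA genes begin 45 and 79 nt upstream. CHTOP, an mRNA export adaptor, had a logASR of 3.48 (standard error 0.797), and TOR1AIP1, a protein of the inner nuclear membrane, had 1.66 (standard error 0.442). These 2 were named after their values were seen.

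A gene named as the antisense or divergent partner of the sense gene, in the form of its symbol with AS or DT, is annotated for 34 of the 240 genes and overlapped the locus in 11. By logASR the first 5 of the 11 were ZBTB11, USP7, ADGRL1, PHLDA1 and SVIL. ADGRL1, an adhesion receptor for latrotoxin, had 4.19 (standard error 0.610), with 161 of 272 nt under exons of ADGRL1-AS1. SVIL, the actin-binding supervillin, had 3.35 (standard error 0.521), with 134 of 344 nt under exons of SVIL-AS1. PHLDA1 had 553 of 1981 nt under exons of PHLDA1-AS1. In USP7, USP7-AS1 crossed 186 of 500 nt with none of its exons.

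Most of the loci held no highly repeated sequence. No 24-mer with 10 or more copies in the genome was found in 201 of 240 loci (83.8%, 95% Wilson interval from 78.6 to 87.9), against 9.21% of the 3′-UTR loci. The share was 91.5% in the coding sequence and 55.8% in the 5′-UTR. No 24-mer with even 2 copies was found in 150 of the 240 loci (62.5%). That stricter share was 70.7% in the coding sequence, 32.7% in the 5′-UTR and 6.58% in the 3′-UTR. Sequence similar to Alu repeats, found in 83.4% of the 3′-UTR loci, was present in 16 of 52 loci of the 5′-UTR and 5 of 188 of the coding sequence. The median logASR was 3.73 without a repeated 24-mer and 3.52 with one. In the 3′-UTR, the 154 loci without a repeated 24-mer had a median of 2.86.

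**Figure D5:**
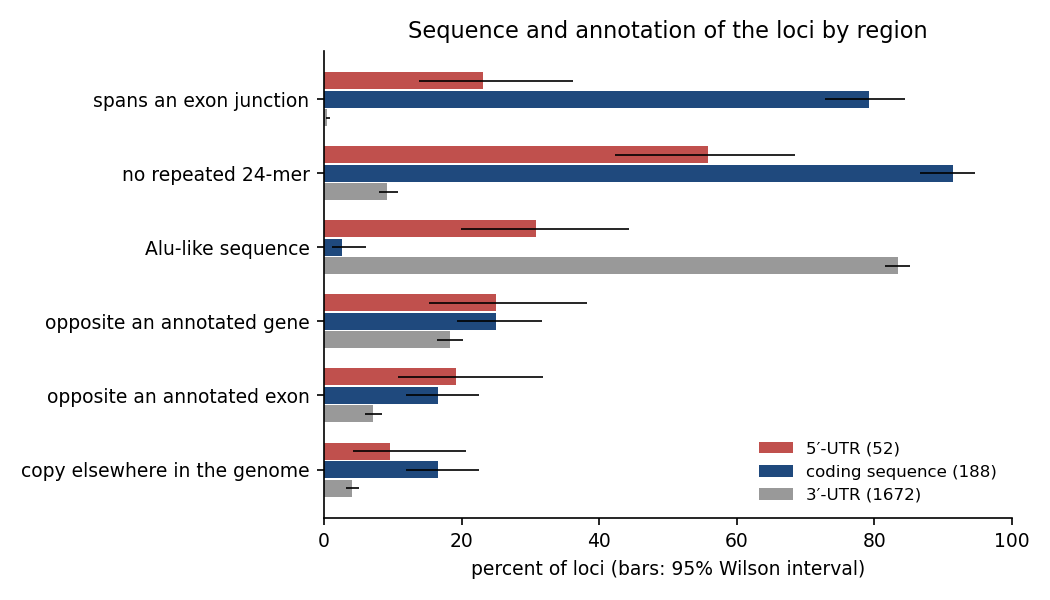
Percent of loci (horizontal axis, with 95% Wilson intervals) with each feature of sequence or annotation, for the 5′-UTR (red, 52 loci), the coding sequence (blue, 188) and the 3′-UTR (grey, 1672). Junctions mark the coding loci, at 79.3%, and Alu-like sequence the 3′-UTR loci, at 83.4%, while the intervals of the 3 shares opposite an annotated gene overlap.

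A further copy of at least 100 nt of the locus, at 85% identity or more, was found outside the sense gene for 36 of the 240 loci (15%, 95% Wilson interval from 11.04 to 20.1), against 4.07% of the 3′-UTR loci. The search masked repeated 24-mers, which most 3′-UTR loci hold, and among loci without one the shares were 30 of 201 (14.9%) here and 24 of 154 (15.6%) in the 3′-UTR. This search was added after the data were seen. Most of these genes, 32 of 36, had a copy annotated as a pseudogene in the same direction. In 13 loci the copy lies within an annotated protein-coding or lncRNA gene that is transcribed in the opposite direction, so that RNA of this host gene holds the antisense sequence of the locus. The median logASR of these 13 loci was 4.02, against 3.71 for the 238 loci above. In other loci the copy runs the same way as its surroundings: all 421 nt of the BPTF locus have a copy at 90.05% identity within LRRC37B on chromosome 17, and all 792 nt of the NFE2L3 locus have one at 96.2% identity in the pseudogene NFE2L3P1.

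In FXR1, all 315 nt of the locus, at chr3:180968101-180970318, match a processed pseudogene at chr12:42431877-42432186 with 95.2% identity, and the pseudogene lies within PPHLN1, which encodes periphilin and runs in the opposite direction. The longest identical stretch is 69 nt. PEF1, a calcium-binding adaptor of the penta-EF-hand family, had a logASR of 5.98 (standard error 0.807), and 301 of its 303 nt match a copy within MDM4 at 91.7% identity. SNRNP200 had 783 of 786 nt at 96.0% identity within a lncRNA gene of chromosome 17. FEN1, the flap endonuclease of DNA replication, had a logASR of 2.36 (standard error 0.513) and all 392 nt at 95.4% identity within HFM1. The authors' settings for reads that match several places are not given in the sources used here, and the part of these copies in the signal was not tested. The stretches below are identical in the locus and its copy, and the antisense strand is written because it is the sequence that an antisense read and an RNA of the host gene would share.
FXR1 and chr12:42432073-42432102: cacgacctcgaccccctgaaacacttctgc
PEF1 and chr1:204529218-204529247: tatcatcatgaggcaggtctcatcattgaa
SNRNP200 and chr17:64751005-64751034: ctcctctcgctccagctgcaccagcaccac

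When loci with a repeated 24-mer, a copy elsewhere or an annotated gene on the opposite strand were all left aside, 127 of the 240 remained, and 73 of these had a logASR above 1 with a q below 1e-05 (57.5%, beside 60.9% of all loci in the table). Their median logASR was 3.88. NAA16, DHX37, RIPOR1, IRS1, PIEZO1, PMS1, PIP4K2B, SKIC3 and COL7A1 were among them.

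By function, the genes were mixed, and the groups here were drawn up after the values were seen. DNA replication and repair was represented by 13 genes, all past a logASR of 0.5 with a q of 0.01 and 8 past the stricter level, with a median of 3.24 beside 3.71 for the 238 loci above. Over the whole table the shares past these levels were 97.4% and 60.9%, and with 9 to 15 genes a group nothing is read from the counts below. RPA1, of the single-strand binding complex, had 5.71 (standard error 1.05), WDHD1, a replisome anchor, had 4.51 (standard error 0.541), and POLE, the leading-strand polymerase, had 3.65 (standard error 0.784). Regulators of chromatin and transcription numbered 12, with a median of 3.74 and 9 past the stricter level. TRRAP, the scaffold of histone acetyltransferase complexes, had 4.06 (standard error 0.524). TRRAP was also the gene opposite the SMURF1 locus, at another position in TRRAP.

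DNA-binding transcription factors numbered 14, with a median of 4.58 and 10 past the stricter level, which 60.9% of the whole table reached. TFE3, a regulator of lysosome genes, had 5.53 (standard error 0.950) and ETV4, an ETS factor, had 4.91 (standard error 0.637), and 8 of the 14 loci were opposite an annotated gene, beside 60 of all 240. The 9 genes of extracellular matrix, adhesion and Wnt signalling had a median of 4.87, 8 of them past the stricter level (60.9% of the whole table) and none opposite an annotated gene (25.0% of the 240 loci). FAT1, a giant protocadherin, had 5.69 (standard error 0.434), DVL2, which relays Wnt signals, had 5.41 (standard error 0.687), and LRP5, a Wnt coreceptor, had 3.27 (standard error 0.634). Ubiquitin and SUMO enzymes (15 genes) had a median of 3.35 and genes of the cytoskeleton and nuclear envelope (13 genes) a median of 3.08, with 8 past the stricter level in each. CRBN, the substrate receptor that thalidomide binds, had 2.17 (standard error 0.582), with all 449 nt under exons of TRNT1. The ranges of the 6 groups overlapped, each group holding 9 to 15 genes.

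In the gene lists, which cover pathways near the study's subject, most genes had no locus at all. The loci described here were 12.5% of the placed loci. The first list below had 7 loci and the second had 4, too few to set against that share. Of 21 genes of the NRF2 and ferroptosis pathways, 6 had any locus and 2 had one in the 5′-UTR or coding sequence, NFE2L2 and SLC3A2. SLC3A2 is the heavy chain of the cystine transporter, and its logASR of 17.9 came with a standard error above 2, a size that 4 counts of at least 1 read cannot give, so no level is read from it. Of 31 stress and growth transcription factors, 4 had any locus and YAP1 had one in the 5′-UTR. Of 97 genes whose symbol begins with RPL or RPS and a digit, a pattern that takes in ribosomal protein kinases, 16 had a locus, none of them before the 3′-UTR on a placed transcript. The replication-dependent histone, clustered protocadherin and olfactory receptor genes had only 3, 3 and 2 loci anywhere in the table and the HOX genes 0. That is too few to read a position from, and none was before the 3′-UTR on a placed transcript.

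The 3 loci that did not reach a logASR of 0.5 with a q of 0.01 were EHBP1L1, SLC3A2 and TAS2R4. EHBP1L1, a Rab effector with the third longest locus (1284 nt), had a q of 0.629, and its logASR was 0.388 with an interval from -1.13 to 1.90. TAS2R4, a bitter taste receptor, had a standard error above 2, as SLC3A2 had. ATAD5, which unloads PCNA from DNA and whose locus of 1696 nt is the second longest, had 1.87 (95% interval from 0.627 to 3.12). Among the 3 longest loci, the interval of PHLDA1, from 3.00 to 3.83, overlaps that of ATAD5 and lies above that of EHBP1L1.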

How the data were processed

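GRO-seq of 2 biological replicates of MDA-MB-231 cells was analysed from the authors' deposited table. For the cells, the paper's mapping methods name the parental line, MDA-Par, its run-on methods MDA-Par or the lung-metastatic derivative MDA-LM2, and a legend MDA-LM2; the labels give MDA-MB-231 only. Per the methods, the authors mapped reads with Bowtie2 2.3.5 to 1 isoform per gene, that of longest coding sequence, and counted antisense reads in windows of 500 nt with a step of 250 nt, then fitted a logistic regression per window, merged neighbouring significant windows and recalculated the values. The labels also name cutadapt 1.18. The deposited logASR is a natural log odds ratio, scaled to the rest of the same transcript and not to library size, so that it is blind to depth but changes where the rest of the transcript is rich in antisense reads. Of the 2 deposited p-value columns, P comes from that regression and q is its Benjamini-Hochberg adjustment over all 2016 loci; how the authors combined the replicates is not stated. No test was fitted here, and there are no values per replicate, so replicates could be neither compared nor left out.

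To obtain the standard error, the size of the logASR was divided by the two-sided normal quantile for P. Loci were read as 0-based transcript positions (a 1-based reading moves ends by 1 nt) and converted to hg38 coordinates through GENCODE 44 exons (GENCODE 28 in the paper's methods); 43 loci on transcripts outside GENCODE 44 and 57 loci past the end of the transcript were left out. Copies of each 24-mer were counted on both strands of 24 chromosomes, and 10 copies counted as repeated. BLAST 2.17.0 was used for Alu-like sequence (alignment to 7SL RNA, e-value 1e-05, at least 30 nt) and for copies elsewhere (at least 100 nt, 85% identity, e-value 1e-15, repeated 24-mers masked, which hides the copies of highly repeated genes). Opposite genes overlapped by at least 1 nt. Intervals of shares are 95% Wilson intervals over loci. The scripts used numba 0.67.0, statsmodels 0.14.6, pandas 2.3.3, scipy 1.17.1 and numpy 2.4.6 under Python 3.11.15. In simulated data, 297 of 297 tables gave back their standard error; the placement was recovered in 500 of 500 transcripts and the copy number in 30 of 30 planted 24-mers.

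The members and gene lists were chosen with earlier results of these data known. Genes named by rule were NFE2L2; the 10 loci with the largest logASR and the 10 with the smallest standard error among loci past the stricter level (logASR above 1, q below 1e-05); the 5 with the longest exonic overlap with an opposite gene and no repeated 24-mer; the 5 with the most junctions; the 3 longest; loci that missed a logASR of 0.5 or a q of 0.01; members of the gene lists; and the 5 with an overlapping partner gene named for them. Genes named by function, by copies elsewhere, by CpG content or as further examples of opposite genes were chosen after their values were seen. Some loci that these rules name are not reported here.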

Additional observations from a re-analysis of the deposited data

How the results depend on the processing

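Each result was recomputed under other settings, and 31 of 36 alternatives moved it by less than 1.5 times (counts) or by less than the median standard error (the median logASR, from 3.64 to 3.89). That standard error is of a typical single locus and not of the median. It is a wide limit, so only the range of the median logASR is to be read. With a Bonferroni correction over the table, the loci past a logASR of 0.5 fell from 237 to 134 and those past a logASR of 1 from 139 to 72. The fall over the whole table was not calculated. Of the loci within 500 nt of the transcript start (59), 5 lay within 250 nt, 111 within 1000 nt, and 31 within 500 nt of genomic sequence. The alternative without copies elsewhere was chosen after the data were seen. No paired analysis was possible because the table has no values per replicate; leaving out a replicate was not possible for the same reason. Depth limits single loci: at the median standard error of 0.712 the smallest count was at most 7 reads, and transcripts that changed between GENCODE releases can shift a locus.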
